A study of Homo sapiens with 8 samples.

Results

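Adhesion G protein-coupled receptors are described here through 8 of their genes, ADGRF1, ADGRF4, ADGRG1, ADGRG6, ADGRL1, ADGRL2, ADGRE5 and ADGRB2, out of 23459 genes in the count table. The genes were selected on their symbols, around ADGRF1, which was itself chosen by its lower counts with lenalidomide in these same libraries. Values of that comparison are therefore given for the 8 genes as a description. Counts of receptors past a threshold are given further on for completeness only and support nothing. The cells were Hct116, an established human colorectal carcinoma line, treated for 16 h with 30 μM lenalidomide, a thalidomide derivative that redirects the CRBN ubiquitin ligase to new protein substrates, or with DMSO, its solvent, in 4 replicates per treatment. According to the methods of the study, both treatments began with a change between media with ordinary and isotope-labelled arginine and lysine, and in 2 of the 4 replicates per treatment the labels were swapped. The sample records give ordinary DMEM with serum and do not mark the swapped replicates, so the swap entered no comparison here. The RNA-seq part of the study asked whether the drug altered RNA levels.

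Adhesion receptors carry a long extracellular region, with modules that bind matrix or neighbouring cells, ahead of a membrane part with the helices common to all G protein-coupled receptors. In most of them a conserved GAIN domain cuts the chain next to the membrane, and the freed end of the membrane fragment acts as a built-in agonist. They signal through G proteins to RhoA, cAMP or phospholipase C, and several are known from epithelia and from tumours.

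ADGRF1 (Entrez gene 266977) lies on the minus strand of chromosome 6, from 46965445 to 47010086 (GRCh37), in a cluster of 869499 bases with ADGRF5, ADGRF2 and ADGRF4. It was the 1 gene of this cluster with more than 26 counts over all 8 libraries. ADGRF1 had 12603, ADGRF2 26, ADGRF4 8 and ADGRF5 8. The exons of ADGRF4 (Entrez gene 221393; 47653600 to 47689757, plus strand) overlap those of ADGRF2 on the same strand, so that the few reads of either could belong to the other. RefSeq promoters, from 250 bases before to 50 after a start site, were matched for 21 of the 33 family genes and for 6 of the 8, with 15 windows of 2 to 48 CG dinucleotides for these 6. Shown are the highest of the 8 receptors, ADGRG6 (chr6:142301757-142302056, plus strand, GRCh38.p14), then ADGRF1 (chr6:47042283-47042582, minus strand) and its nearly silent neighbour ADGRF4 (chr6:47698330-47698629, plus strand). These 3 differ in level, and ADGRG6 differs from the other 2 in CpG content. Each is written 5′ to 3′ with the CG dinucleotides in capitals.
ADGRG6: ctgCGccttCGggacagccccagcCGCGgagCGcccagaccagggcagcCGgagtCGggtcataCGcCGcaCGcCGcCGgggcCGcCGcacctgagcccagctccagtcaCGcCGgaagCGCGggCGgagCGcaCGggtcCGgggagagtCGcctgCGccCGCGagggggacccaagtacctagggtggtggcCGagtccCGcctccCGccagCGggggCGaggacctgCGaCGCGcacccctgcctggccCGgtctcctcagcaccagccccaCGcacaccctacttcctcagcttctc
ADGRF1: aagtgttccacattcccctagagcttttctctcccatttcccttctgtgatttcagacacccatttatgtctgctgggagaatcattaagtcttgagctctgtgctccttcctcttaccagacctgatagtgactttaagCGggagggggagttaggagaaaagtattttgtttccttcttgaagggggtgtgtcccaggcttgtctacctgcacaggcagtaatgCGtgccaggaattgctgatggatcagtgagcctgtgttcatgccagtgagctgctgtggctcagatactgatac
ADGRF4: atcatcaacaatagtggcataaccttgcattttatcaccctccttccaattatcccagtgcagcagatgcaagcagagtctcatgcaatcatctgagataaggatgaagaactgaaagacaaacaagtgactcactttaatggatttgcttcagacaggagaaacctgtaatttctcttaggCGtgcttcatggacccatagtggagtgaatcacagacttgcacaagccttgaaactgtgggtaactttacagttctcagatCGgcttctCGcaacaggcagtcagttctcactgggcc
The ADGRG6 window held 36 CG dinucleotides, the ADGRF1 window 2 and the ADGRF4 window 3. Among 35116 RefSeq promoter windows the median was 14. At least 36 were found in 12.7% of windows, at most 3 in 24.5% and at most 2 in 18.2%. A CpG-poor window thus stood before a receptor with over 1000 counts in every library and before one with at most 2. The low receptors ADGRB2 and ADGRL2 had 48 CG dinucleotides in its window and 4 to 34 in its windows, respectively.

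Levels between genes were compared as CPM (counts over TMM-adjusted library size) per kb of exonic width. ADGRG6, a receptor for collagen IV and laminin-211 known from Schwann cells, was highest, between 19.4 and 21.7 in the 4 DMSO libraries and between 19.4 and 22.5 with lenalidomide. ADGRE5 (CD97), which binds CD55 and is known from leukocytes and carcinomas, came next, between 8.57 and 9.76 with DMSO. ADGRF1 (GPR110) followed at 7.05 to 8.02 and ADGRL1 (latrophilin 1), a receptor of neuronal teneurins and FLRT proteins, at 6.55 to 7.36. ADGRG1 (GPR56), which binds collagen III and transglutaminase 2, was at 2.73 to 2.91. ADGRB2, of the brain angiogenesis inhibitor group, was at 0.430 to 0.590, ADGRL2 at 0.0558 to 0.0740 and ADGRF4 at 0 to 0.0158. In this order the ranges of ADGRF1 and ADGRL1 overlapped, and those of the other neighbours did not, within DMSO or within lenalidomide. With lenalidomide the same 2 genes stood in the other order, with ADGRL1 at 6.09 to 7.86 and ADGRF1 at 5.77 to 6.47.

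**Figure D1:**
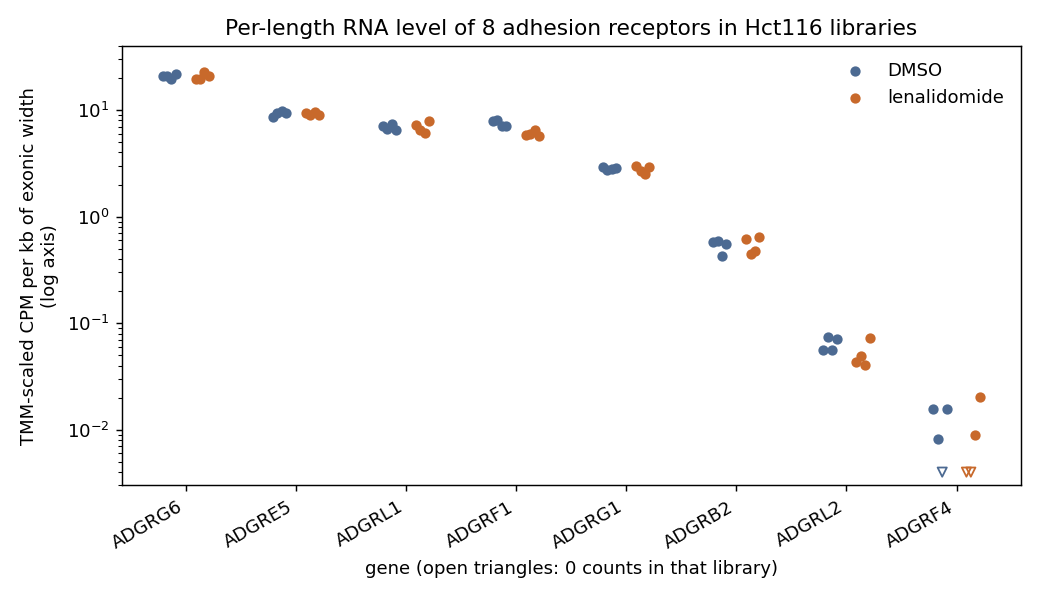
Per-length RNA level (TMM-scaled CPM per kb of exonic width, log axis) of the 8 receptors, 1 point per library, DMSO in blue and lenalidomide in orange, with open triangles for libraries with 0 counts. ADGRG6 sits near 20 in every library, and ADGRL2 and ADGRF4 lie below 0.1.

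ADGRF1 was lower with lenalidomide. This receptor of the F group responds to the lipid synaptamide and is known from developing neurons and from several carcinomas. It had 2016, 1978, 1643 and 1817 counts in DMSO replicates 1 to 4, and 1224, 1344, 1448 and 1133 with lenalidomide. Scaled to CPM these were 54.0, 54.6, 48.0 and 48.0 with DMSO and 39.7, 40.5, 44.03 and 39.3 with lenalidomide. All 4 lenalidomide libraries were below all 4 DMSO libraries, and the closest were lenalidomide replicate 3 and DMSO replicate 4. The means were 51.1 ± 3.64 CPM and 40.9 ± 2.16 CPM (n = 4, SD), which gives a log2 fold change of -0.32 with a 95% confidence interval from -0.46 to -0.19 (standard error, SE, 0.063), or a change of -20.0%. In a bulk sample, fewer cells with the transcript and less of it per cell cannot be told apart. Groups that did not overlap, with lenalidomide lower, were found for 117 of the 13925 genes tested, or 0.84%, and with lenalidomide higher for 173, or 1.24%. Of the 8 receptors ADGRF1 alone had groups without overlap, and since that difference chose it, nothing is read from the count.

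The other receptors overlapped between treatments. ADGRG6 (Entrez gene 57211; chromosome 6, 142622991 to 142767403) had 153.1, 151.6, 141.3 and 158.1 CPM with DMSO and 141.3, 143.6, 164.2 and 151.4 CPM with lenalidomide. On the log2 scale the difference was -0.0086 (SE 0.060, 95% confidence interval from -0.14 to 0.12). The interval of this best-counted receptor does not reach the value of ADGRF1. ADGRE5 (Entrez gene 976; chromosome 19, 14491313 to 14519537) had 29.9, 32.8, 34.1 and 32.6 CPM with DMSO and 32.6, 31.6, 33.8 and 31.2 CPM with lenalidomide, a log2 fold change of -0.0020 (95% confidence interval from -0.13 to 0.12). ADGRE5 and its neighbour ADGRE2 are close copies in their EGF-like modules. In ADGRE5 transcripts 12.3% of the 50-base words also occur in ADGRE2, so that reads from these words could not be assigned to 1 gene by sequence. Transcripts of the other 7 receptors shared less than 1% of such words with any family gene.

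ADGRL1 (Entrez gene 22859; chromosome 19, 14258555 to 14316999) had 55.4, 52.1, 57.8 and 51.4 CPM with DMSO and 57.3, 50.5, 47.8 and 61.7 CPM with lenalidomide. Its log2 fold change was 0.0042 (95% confidence interval from -0.16 to 0.17), and the lenalidomide libraries held both its highest and its lowest value. The antisense gene ADGRL1-AS1 overlaps its exons, as an unnamed antisense gene does for ADGRE5, and reads were counted with QuasR's default parameters, with no strand setting named. ADGRG1 (Entrez gene 9289; chromosome 16, 57644564 to 57699492) had 13.6, 12.8, 13.0 and 13.4 CPM with DMSO and 13.8, 12.6, 11.7 and 13.8 CPM with lenalidomide, a log2 fold change of -0.029 (95% confidence interval from -0.19 to 0.13). The DMSO values of ADGRG1 were the tightest of the 8 receptors, with a coefficient of variation of 2.87%.

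The low receptors were measured with less precision. ADGRB2 (Entrez gene 576; chromosome 1, 32192718 to 32230494) had 3.61, 3.72, 2.72 and 3.46 CPM with DMSO and 3.89, 2.84, 3.01 and 4.09 CPM with lenalidomide. Its log2 fold change of 0.026 had a 95% confidence interval from -0.29 to 0.34. ADGRL2 (Entrez gene 23266; chromosome 1, 81771832 to 82459616), a second latrophilin, had 14, 18, 13 and 18 counts with DMSO and 9, 11, 9 and 14 with lenalidomide. Its log2 fold change of -0.33 was as large as that of ADGRF1, but its standard error was 0.29 and the 95% confidence interval ran from -0.95 to 0.28. Lenalidomide replicate 4 stood with the DMSO libraries, at 0.485 CPM against 0.274 to 0.332 CPM in the other lenalidomide libraries, and without it the log2 fold change of ADGRL2 was -0.52. ADGRF4 had 2, 1, 0 and 2 counts with DMSO and 0, 0, 1 and 2 with lenalidomide. The sums were 5 counts (exact Poisson 95% interval from 1.62 to 11.7) and 3 counts (0.619 to 8.77), and a difference was not detectable at this depth. These intervals cover counting error only.

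**Figure D2:**
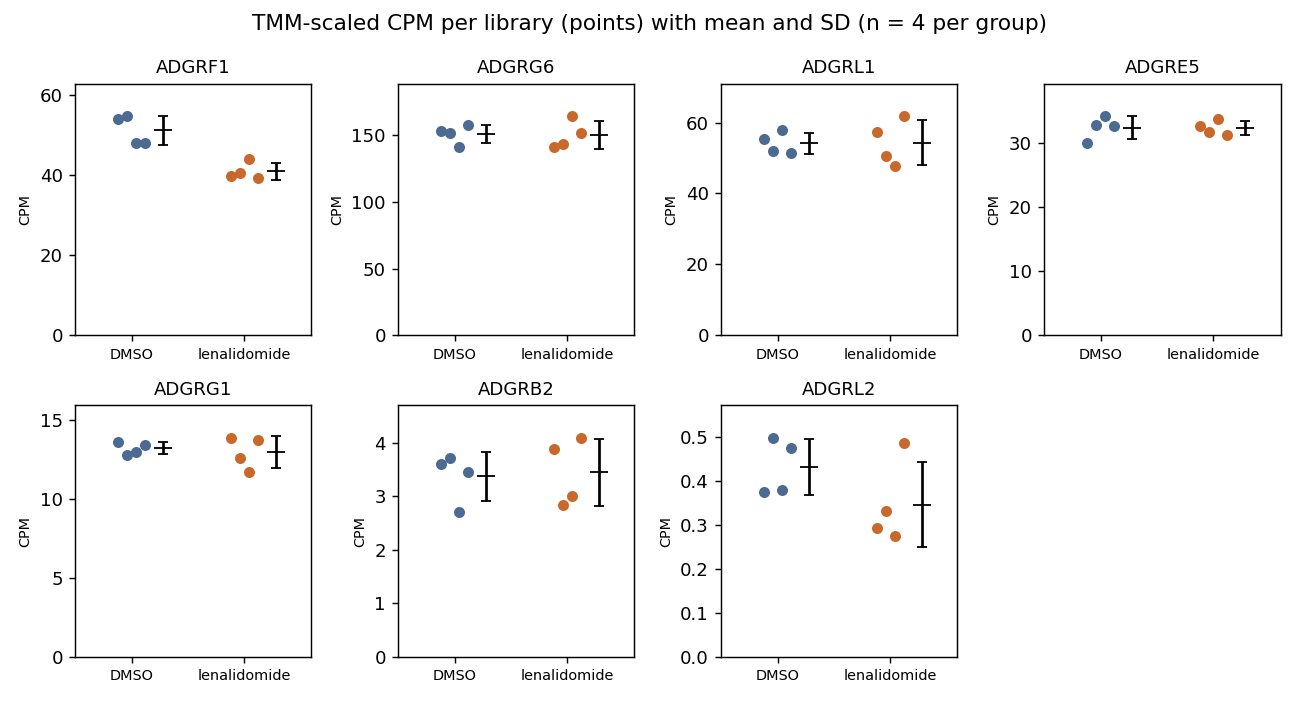
TMM-scaled CPM in each library (points) for the 7 receptors that passed the count filter, with the mean and SD of each treatment (n = 4) and axes from 0. In ADGRF1 the lenalidomide points, from 39.3 to 44.03 CPM, lie below the DMSO points, from 48.0 to 54.6 CPM, and in the other panels the treatments overlap.

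In the quasi-likelihood test of edgeR, with p adjusted by Benjamini-Hochberg over all genes, 2 of 13925 genes, or 0.0144%, fell below 0.05, and 0 of the 7 receptors tested were among them. DESeq2 on the same genes called 9, of which 1 was a receptor, ADGRF1. At an unadjusted p under 0.05 there were 582 genes in all and 1 receptor. The comparison was the one that chose the genes, so these counts are not evidence for or against a change. ADGRF4 did not pass the filter. ADGRL2 reached its cut-off of 0.290 CPM in 4 DMSO and 3 lenalidomide libraries, and the other 6 in all libraries.

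Counts of 2 receptors can also be divided within a library, where no scaling between libraries enters. The ratio of ADGRF1 to ADGRG6 counts was 0.353, 0.360, 0.340 and 0.303 with DMSO and 0.281, 0.282, 0.268 and 0.259 with lenalidomide. The lenalidomide ratios were all below the DMSO ratios. All ratios and shares here use the ADGRF1 counts that chose the gene, so they are a description and not further support. Against ADGRE5 the ratio was between 1.41 and 1.80 with DMSO and between 1.22 and 1.30 with lenalidomide, again without overlap. Against ADGRL1 it was between 0.830 and 1.05 with DMSO and between 0.636 and 0.921 with lenalidomide, and the treatments overlapped. The lowest DMSO ratio to ADGRL1 was in DMSO replicate 3 and the highest lenalidomide ratio in lenalidomide replicate 3. ADGRF1 made up 16.7% ± 1.01 of the counts of the 8 receptors with DMSO and 13.9% ± 0.670 with lenalidomide, while ADGRG6 made up 49.4% ± 1.59 and 51.0% ± 2.11 (n = 4, SD).

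**Figure D3:**
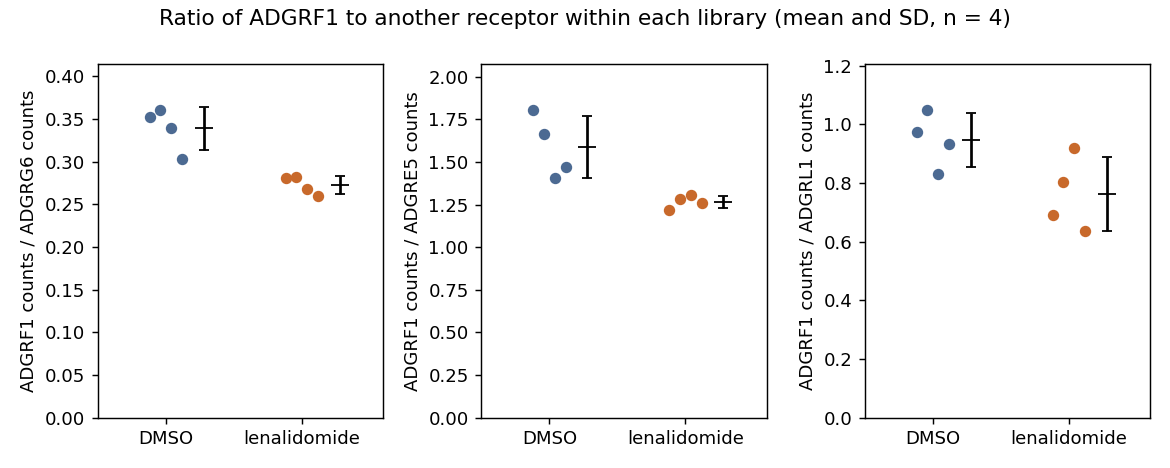
Ratio of ADGRF1 counts to those of ADGRG6, ADGRE5 or ADGRL1 within each library (points), with the mean and SD of each treatment (n = 4) and axes from 0. The ratio to ADGRG6 stays at or below 0.282 with lenalidomide and at or above 0.303 with DMSO, and the ratio to ADGRL1 overlaps.

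The genes whose profile lay closest to that of ADGRF1 were found by the root mean square distance of log2 CPM over the 8 libraries, each profile centred on its mean. They were TIPARP at 0.041, RNF128 at 0.071, LOC728743 at 0.072, KLF5 at 0.077 and MIR4721 at 0.082, against a median of 0.20 over all genes. TIPARP, a target of the aryl hydrocarbon receptor, had 105.2 to 114.8 CPM with DMSO and 86.3 to 95.8 CPM with lenalidomide. KLF5, a zinc finger factor of gut epithelium, had 80.7 to 91.2 CPM with DMSO and 71.4 to 74.7 CPM with lenalidomide. RNF128, a membrane-bound ubiquitin ligase, had 9.44 to 11.1 CPM and 7.52 to 7.95 CPM. In all 5 the lenalidomide libraries were below the DMSO libraries, which the choice by likeness to ADGRF1 favours, and shared libraries and scaling enter each distance.

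The other 25 genes of the family were read from the same fit. They are what the choice of the 8 left over, so they are not independent of that choice. Of these, 10 passed the filter, 0 fell below an adjusted p of 0.05 in edgeR or in DESeq2, and 1 had an unadjusted p under 0.05, against 582 of all 13925 genes. Their median log2 fold change was 0.043, against 0.0025 over all genes tested. ADGRA3, an orphan receptor, was the highest, at 117.6 ± 2.94 CPM with DMSO and 121.7 ± 7.92 CPM with lenalidomide (n = 4, SD), and per length it stood between ADGRG6 and ADGRE5 at 14.5 with DMSO. ADGRV1, the very large receptor of hair cell and photoreceptor links, had the smallest p. It had 16.2 to 20.6 CPM with DMSO and 17.3 to 29.4 CPM with lenalidomide, and the log2 difference was 0.33 (SE 0.13, adjusted p = 0.999 in edgeR). The cadherin receptors of planar cell polarity had log2 fold changes of 0.16 for CELSR1, -0.17 for CELSR2 and 0.17 for CELSR3, each with overlapping groups. ADGRA2, ADGRB1, ADGRE2, ADGRF3 and ADGRG5 lay between -0.11 and 0.11. Of these, ADGRF3 and ADGRB1 had 77 and 160 counts over all libraries, and their standard errors were 0.43 and 0.29. Exons of ADGRV1, ADGRA2, ADGRE2 and ADGRF3 overlap a gene on the opposite strand, so their reads could not be told from those of LYSMD3, BRF2, ZNF333 and SELENOI without strand.

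**Figure D4:**
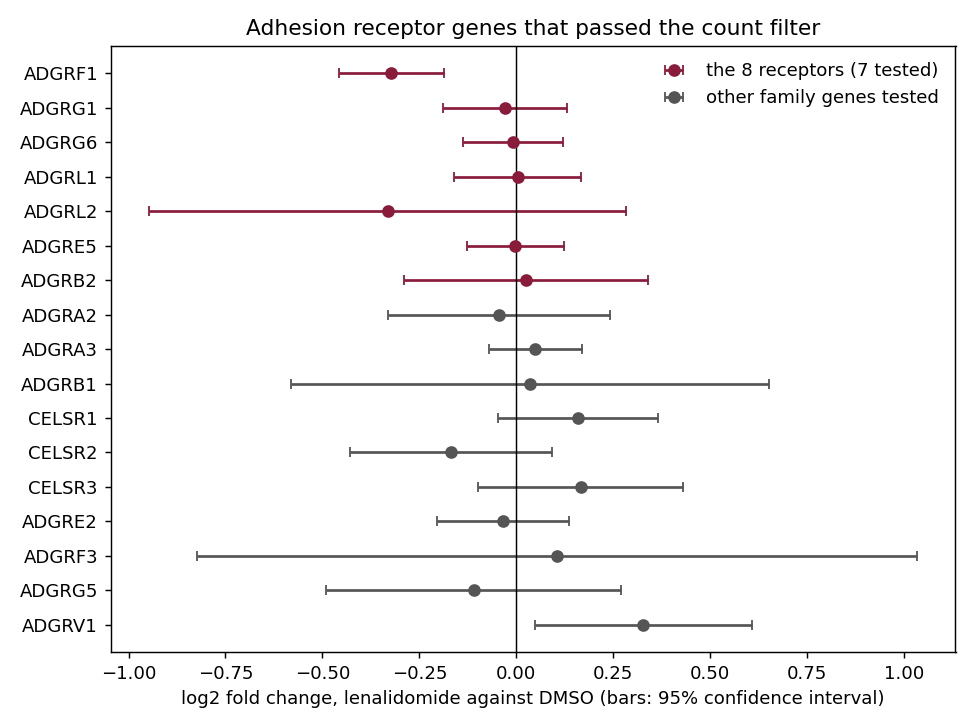
Log2 fold change of lenalidomide against DMSO for the 17 adhesion receptor genes that passed the count filter, with 95% confidence intervals from the edgeR fit, the 7 described receptors in red and 10 others in grey. The intervals, not adjusted for the number of genes, leave out 0 for ADGRF1, on the lower side, and ADGRV1, on the higher side. ADGRF1 was chosen for this difference, and ADGRV1 had an adjusted p of 0.999 in edgeR.

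Under the filter stayed 16 family genes, ADGRF4 included, and 2 of them, ADGRA1 and ADGRD2, had 0 counts in every library. The other 14 together held 17 to 73 counts per library. Lenalidomide replicate 4 held 73 of them, or 2.53 summed CPM against 0.455 to 1.10 in the other libraries, and 9 of the 14 genes had their highest CPM there. It was also the smallest library, with 28218471 counts, and the one in which most genes had a count, 19568 against 16953 to 18476. The highest values of ADGRL1, ADGRB2, ADGRV1, CELSR1, CELSR2 and CELSR3 were in this library too, as were those of GNB1, GNA12 and PRKCD, described below. ADGRV1 had 29.4 CPM there and 17.3 to 22.1 CPM in the other lenalidomide libraries. The lowest value of ADGRF1, 39.3 CPM, and its lowest ratios to ADGRG6 and ADGRL1 were also there. Without this library the log2 fold change of ADGRF1 was -0.30. ADGRG6, ADGRE5, ADGRG1 and ADGRA3 had neither extreme there. The part of this library in these values was not tested.

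Partners and signalling genes of adhesion receptors were read in lists: 24 extracellular partners, 17 G protein subunits, effectors of the RhoA, cAMP and Gq arms, arrestins and receptor kinases, and genes that respond to cAMP or to RhoA. Of these 105 genes 80 were tested. Of those, 0 fell below an adjusted p of 0.05 in edgeR or in DESeq2, and 7 had an unadjusted p under 0.05, against 582 of all 13925 genes. The smallest adjusted p was 0.999. Of the partners, CD55, the ligand of ADGRE5, was at 51.1 CPM with DMSO and 49.7 CPM with lenalidomide, and integrin ITGB1 had the highest per-length level of its list, 170.9. For ADGRG6, the collagen IV genes COL4A1 and COL4A2 had 19 and 11 counts in all libraries together, while LAMA2 and PRNP were at 9.42 and 142.1 CPM with DMSO. For ADGRG1, COL3A1 had 26 counts in all and TGM2 3.28 CPM. For the latrophilins, TENM3 and FLRT3 passed the filter, with log2 fold changes of 0.23 and 0.17. C1QL1 had the largest log2 fold change of the partners, 0.61 (SE 0.30), from 0.407 CPM.

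GNAI3 had the highest per-length level of the G protein subunits, with 351.8 ± 13.9 CPM with DMSO and 333.2 ± 19.6 CPM with lenalidomide (n = 4, SD). GNB1 and GNA12, which had the smallest p of that list, had log2 fold changes of 0.16 (SE 0.071) and 0.24 (SE 0.11). In the RhoA arm all 9 genes were tested. RHOA was at 565.0 and 587.9 CPM, RHOB had a log2 fold change of -0.13 (SE 0.059) and ARHGEF12 of 0.098. In the cAMP arm the values were 0.20 (SE 0.072) for the regulatory subunit PRKAR1B and -0.12 for the cyclase ADCY9, and PRKAR1A was at 634.5 and 612.3 CPM. In the Gq arm they were -0.52 (SE 0.20) for PLCB2, 0.29 (SE 0.11) for PRKCD and 0.11 for ITPR3. ARRB2 and the kinase GRK2 were at -0.087 and -0.032.

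Among the response genes, all 7 tested genes of the cAMP list had a log2 fold change below 0, from -0.39 to -0.044, with a median of -0.10, while 6781 of all 13925 genes lay below 0. In the Gq arm, a list of signalling genes and not of response genes, 8 of 9 lay above 0, with a median of 0.094. Above 0 lay 7144 of all 13925 genes, and 8 of the 15 tested genes of the cAMP arm. DUSP1, a phosphatase that switches off MAP kinases, was at 7.63 to 12.3 CPM with DMSO and 5.76 to 8.48 CPM with lenalidomide, NR4A1 at -0.22 and SIK1 at -0.10 on the log2 scale. Each of these had overlapping groups and none passed the threshold, so no change is claimed for the list. Of the 9 tested genes that respond to SRF or YAP, 7 lay below 0, with a list median of -0.062. The matrix protein gene CYR61 had a log2 fold change of -0.36 (SE 0.17), AMOTL2 of -0.16 and the myosin MYH9 of 0.0068. DMSO replicate 3 held the highest value of each. For CYR61 it was 14.8 CPM, against 7.81 to 8.27 CPM in the other DMSO libraries and 6.97 to 8.15 CPM with lenalidomide. For AMOTL2 it was 107.7 CPM against 67.4 to 75.7 CPM in the other DMSO libraries, and for MYH9 949.5 against 595.4 to 745.3 CPM.

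**Figure D5:**
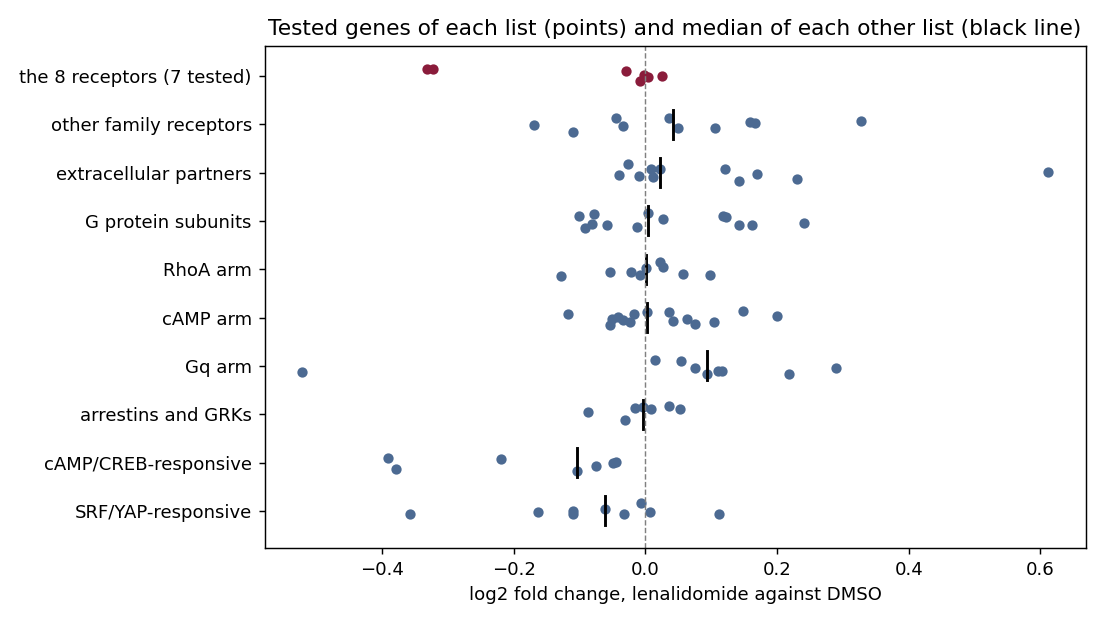
Log2 fold change of lenalidomide against DMSO for every tested gene (point) of the described receptors, the other family genes and the 8 partner and signalling lists, with a black line at each median but that of the receptors. ADGRF1 and ADGRL2 lie near -0.33, and the medians drawn lie between -0.10 and 0.094.

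The 8 libraries held 28218471 to 37473413 counts, with 28218471 to 33659982 in the lenalidomide and 35268940 to 37473413 in the DMSO libraries. Libraries of 1 treatment differed by more than sampling noise (chi-square per degree of freedom of 5.82 to 25.5 over 12 pairs), and none was counted as a copy of another. The study calls the RNA replicates biological, and calls those of the matching protein experiment, made from the same samples, technical in its methods. The p-values and errors measure the spread between these samples, which would be technical where cultures were shared. Of 8 colon epithelial markers 6 were tested and led by KRT19 (845.6 CPM with DMSO), with KRT8 at 473.1 and CDH1 at 56.6 CPM, while VIL1 and CEACAM5 had 7 and 3 counts in all libraries. The 5 leukocyte markers, with LYZ the highest per length, summed to 0.0528 to 0.193 CPM per DMSO library and 0.182 to 0.451 CPM per lenalidomide library, and 0 of them passed the filter. The 6 stromal and endothelial markers summed to 3.24 to 3.78 CPM with DMSO and 2.87 to 4.28 CPM with lenalidomide, mostly from COL1A1, with VWF at 0.309 CPM with DMSO. ADGRE5 was thus counted in libraries in which leukocyte markers were at or near 0. The part of these markers in the results was not tested.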

How the data were processed

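Total RNA was prepared by the authors with a ScriptSeq v2 kit, sequenced, aligned to hg19 with QuasR and counted per UCSC known gene. They deposited raw read counts for 23459 genes and 8 libraries without normalization, with the exonic width of each gene in bases, a further deposited column of other type. The processing notes name bcl2fastq 2.17. Quantification used QuasR's default parameters, with no strand setting named, and the read length and QuasR version were not given in the sources used here, and 0 columns were left without a sample. The members and gene lists were chosen with earlier results of these data known.

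The tools were DESeq2 1.42.0 and edgeR 4.0.16 in R 4.3.3. The filterByExpr function (minimum count 10, minimum total 15) left 13925 genes. TMM factors and edgeR's quasi-likelihood test compared lenalidomide with DMSO, with Benjamini-Hochberg adjustment and a threshold of 0.05. Standard errors and 95% intervals were derived from each coefficient with its F statistic. For CPM, library sizes were summed over kept genes and multiplied by the TMM factor. Profiles used log2(CPM + 0.5). Rows without a symbol (70, with 0.0223% of counts) carry gene identifiers and were kept. Genes named were the 8 receptors, the other tested family genes, the 2 smallest p and the highest per-length level of each list, and the 5 profiles nearest ADGRF1. CD55, COL4A1, COL4A2, LAMA2, PRNP, COL3A1, TGM2, FLRT3, VIL1 and CEACAM5 were named for their roles after their values were seen. Gene positions come from GENCODE on GRCh37, the build of the alignment, and promoters from RefSeq on GRCh38.p14. The edgeR and DESeq2 fits were tested on simulated data. Alternatives were RLE scaling, DESeq2, 2 other filters, a replicate block and leaving out each library.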

Additional observations from a re-analysis of the deposited data

How the results depend on the processing

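Genes below the adjusted threshold numbered 2 in edgeR, 9 in DESeq2, 6 when replicate number entered as a block and 4 when all genes with a count were kept. Leaving out each library gave from 1 to 2, with 2 only without lenalidomide replicate 4. It was 2 with RLE scaling and with at least 10 counts in every library. The count of receptors called was 1 with DESeq2, which called ADGRF1, and 0 in the other alternatives run, the replicate block and each left-out library included. The cause was not tested. The count of partner and signalling genes called was 0 in all of them. For the 7 receptors tested, 89 of 90 log2 fold changes moved by less than the spread between replicates, and the 1 exception was ADGRL2 at -0.52 without lenalidomide replicate 4. ADGRF1 lay between -0.36 and -0.29 over the 8 fits without 1 library and at -0.32 with the block. The values of ADGRG1, ADGRG6, ADGRL1, ADGRE5 and ADGRB2 changed sign in some fits and stayed between -0.067 and 0.11. By per-length level, 6 of 8 receptors kept their rank in DMSO libraries alone, where ADGRF1 and ADGRL1 exchanged places, and all 8 kept it with library size scaling. Same-numbered libraries had deviations that correlated between -0.0075 and 0.31, and 3 of the 8 samples correlated best with their own number, so the numbers were not taken as pairs. Depth limits ADGRB2, ADGRL2 and ADGRF4, with 925, 106 and 8 counts over all libraries.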

Other observations

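Among the 9064 genes with a DMSO mean of at least 10 CPM, 8 had a log2 fold change at or below that of ADGRF1, ADGRF1 included. Over all 13925 genes tested there were 134. Since ADGRF1 was chosen for this difference, its place is a description. In 16 groups of 4 receptor values, 8 genes in 2 treatments, 0 held a value far from the other 3 by Dixon's criterion. The spread that the edgeR fit gave ADGRF1 beyond counting error was a coefficient of variation of 6.42%, against a median of 7.41% over the genes tested, 6.31% for ADGRG6 and 11.9% for ADGRB2 and ADGRL2.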
